A study of Saccharomyces cerevisiae with 34 samples.

Results

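The kinetochore and spindle checkpoint genes of budding yeast were followed across strains in which the centromeric histone CENP-A Cse4 was overexpressed, with or without the ubiquitin ligase Psh1 that targets it for degradation. A total of 48 genes were taken by name from the 6209 genes of the count tables: the subunits of the kinetochore layers from centromeric DNA to the microtubule, 3 genes of the passenger complex, 6 checkpoint genes, SGO1 and STU2. CSE4 is not among them, since it was the overexpressed gene in some strains. Of these, 47 were found under their symbol, and NDC10 was found under its other name, CBF2 (YGR140W). All 48 passed the filter on low counts that had been applied before the tables were deposited, so no gene of the set was lost, and no further filter was used.

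The libraries came from asynchronous haploid MATa cells of the W303 background, all RAD5, bud4 and bar1-1, with can1-100 and the nutritional markers ade2-1, his3-11, trp1-1, ura3-1 and a leu2 allele. The 6 genotypes were WT, *psh1Δ* (psh1::KAN), *htz1Δ* (htz1::HYG, which lacks the histone variant H2A.Z), *pGAL-H3*, *pGAL-3Flag-CSE4*, and the latter gene in cells that also lack Psh1, *psh1Δ pGAL-3Flag-CSE4*. The galactose-inducible genes were integrated at the leu2 locus (3Flag-CSE4, with the marker LEU2) or the trp1 locus (H3, with TRP1). WT, *psh1Δ* and *htz1Δ* carried neither marker, so the inducible strains also differed from them in this, and its part was not tested. The endogenous CSE4 gene was present in every strain. Cultures grew at 23 °C in YEP medium with lactic acid, and RNA was taken before galactose (t0) and 2 h after 2% galactose was added (t2), so WT and deletion cultures at t2 had also received galactose. Every group held 3 libraries, 1 for each of 3 labelled batches, except that *pGAL-3Flag-CSE4* had 2, from batches 2 and 3. The 34 libraries represent 17 strain numbers, each sampled at both times, and 1 strain stands for each genotype in a batch.

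The kinetochore joins a chromosome to spindle microtubules. In budding yeast it is built on a single CENP-A nucleosome: the CBF3 complex and Cbf1 bind centromeric DNA, Mif2 (CENP-C) and the COMA complex bind the nucleosome, and the MIND, Spc105 and Ndc80 complexes connect these to the Dam1 complex, a ring around the microtubule. The passenger complex with the kinase Ipl1 (Aurora B) releases wrong attachments, and the Mad and Bub proteins with the kinase Mps1 delay anaphase while kinetochores are unattached.

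Library totals ran from 5258139 to 6836827 counts, with a median of 5852828, and a member had between 27 and 595 counts in a library, with a median of 148. The members together held 0.111 to 0.156% of a library's counts. PSH1 had 0 to 3 counts in the 12 deletion libraries and 165 to 330 elsewhere, HTZ1 had 0 to 2 counts in 6 deletion libraries and 556 to 837 elsewhere, and CSE4 had 63081 to 108727 counts in the 5 induced libraries and 104 to 332 elsewhere. The genes specific to MATa cells had 22 to 151 (MFA1), 117 to 497 (MFA2), 1114 to 3665 (STE2) and 805 to 1624 counts (STE6), and those specific to MATalpha cells 0 to 9 (STE3) and 22 to 51 (MF(ALPHA)2). The batch 1 strains of *psh1Δ* and *psh1Δ pGAL-3Flag-CSE4* stood apart on chromosome I, where the median gene lay 0.82 to 0.95 above the same-batch WT library on the log2 scale in all 4 of their libraries. In the other 444 combinations of library and chromosome, this median lay between -0.14 and 0.08. MTW1 is the only member on chromosome I and is described with that difference. In bulk RNA, fewer cells expressing a gene and less RNA per cell cannot be told apart, and this includes shifts in how many cells are in mitosis.

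Levels are given as TMM-scaled CPM, counts relative to library size after a correction for a few very abundant RNAs. Divided by exon length, levels in WT at t0 differed widely between members. DAD4, a subunit of the Dam1 ring, had the highest level, 119 ± 18.2 CPM per kb (SD, n = 3), and CTF13, a subunit of CBF3, the lowest, 7.16 ± 0.68 CPM per kb, beside the checkpoint kinase gene BUB1 at 7.20 ± 0.63. CTF13 and BUB1 differed by less than their spread. DAD4 shares 15 bases with an antisense reading frame, YDR320W-B, and the libraries do not keep strand.

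Per kb, 5 of the 10 Dam1 ring subunits were among the 7 highest members (DAD4, HSK3, DAD1, DAD3 and SPC19). CBF1 (57.1 ± 4.11 CPM per kb) and the Ndc80 subunit gene SPC25 (53.8 ± 5.52) lay between them. These 5 Dam1 genes are short, 210 to 498 bases, and undivided by length they had 13.7 to 26.1 CPM. STU2 (77.3 CPM) and CBF1 (60.3 CPM) were higher when undivided. NDC80, which gives the microtubule-binding complex its name, had 16.4 ± 1.02 CPM per kb, and MIF2 had 14.8 ± 1.36. The checkpoint gene MAD1 had 13.9 ± 1.39 and IPL1 9.23 ± 1.81. SPC25 and NDC80, subunits of the same complex, thus differed in level per kb. Undivided, these 2 genes had 35.8 and 34.1 CPM. The length used was that of the coding sequence, without untranslated ends, and its part in differences per kb was not tested.

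**Figure D1:**
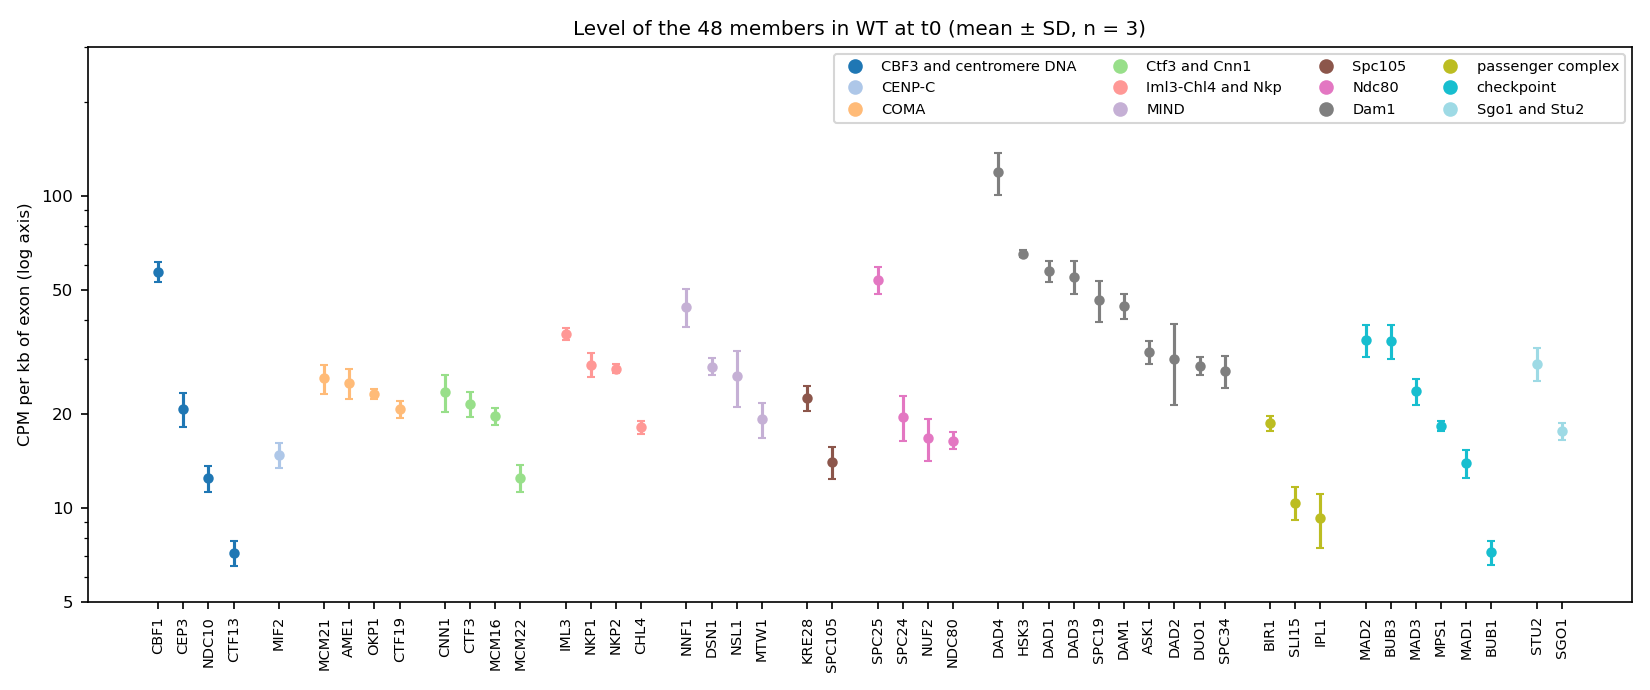
TMM-scaled CPM per kb of exon (log axis) of the 48 members in WT at t0, grouped by complex; points are means and bars SD over 3 libraries. DAD4 lies highest at 119 CPM per kb, and CTF13 and BUB1 lowest, near 7.2.

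Across the 12 groups, the members varied little. The ratio of the highest to the lowest group mean had a median of 1.44 over the 48 members, from 1.12 for CTF3 to 2.43 for IML3, and a median of 1.51 over the 3018 genes with mean counts in the members' range. Within a group, the SD of the log2 level had a median of 0.17 over the members, against 0.12 for counting alone. MTW1 had the largest such SD, 0.39, and CBF1 the smallest, 0.11.

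The mean log2 CPM over the 48 members ran only from 4.56 ± 0.02 (SD, n = 3) in *htz1Δ* at t0 to 4.65 ± 0.08 in *psh1Δ* at t2. In *psh1Δ pGAL-3Flag-CSE4* it was 4.64 ± 0.02 at t0 and 4.57 ± 0.06 at t2, and the ranges of the 3 libraries overlapped (4.62 to 4.66 and 4.50 to 4.62). In plain CPM, without TMM scaling, the median of all genes itself changed by -0.23 between t0 and t2 in *psh1Δ pGAL-3Flag-CSE4* and differed by -0.14 between *htz1Δ* and WT at t2, and the changes given here are relative to such shifts. All named members past the adjusted limit kept their direction in plain CPM.

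Single members were tested with edgeR's quasi-likelihood test on all 6209 genes with Benjamini-Hochberg adjustment, and a gene was called at an adjusted p under 0.05 and a fold of at least 1.5 in either direction. In 15 comparisons there were 10 calls of a member, in 7 genes: IML3, DAD1, DAD2, MCM16, CBF1, CHL4 and DUO1. Called in at least 1 comparison were thus 14.6% of the members, against 26.8% of all genes, and the other 41 members were called nowhere. All 10 calls fell in 4 comparisons, and each involved either *htz1Δ* cells at t2 or *psh1Δ pGAL-3Flag-CSE4* cells at t2.

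In *htz1Δ* against WT at t2, 2 of 48 members were called, which is 4.17%, against 6.54% of all genes. In *htz1Δ* from t0 to t2 it was also 2 members, 4.17%, against 10.8% of all genes. Both shares lie below the background. The adjusted p alone was passed by 4 and 3 members, where 15.8 and 24.8% of all genes passed it.

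In *psh1Δ pGAL-3Flag-CSE4* from t0 to t2, 3 members were called, 6.25%, against 6.28% of all genes. Against *psh1Δ* at t2, 3 members were called, 6.25%, against 4.77% of all genes. These shares are near the background. The adjusted p alone was passed by 6 and 4 members, against 11.2 and 5.93% of all genes. The median log2 change of the members was -0.08 and -0.09 in these comparisons (0.01 and -0.01 over all genes), and 30 of the 48 had a negative value in each.

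**Figure D2:**
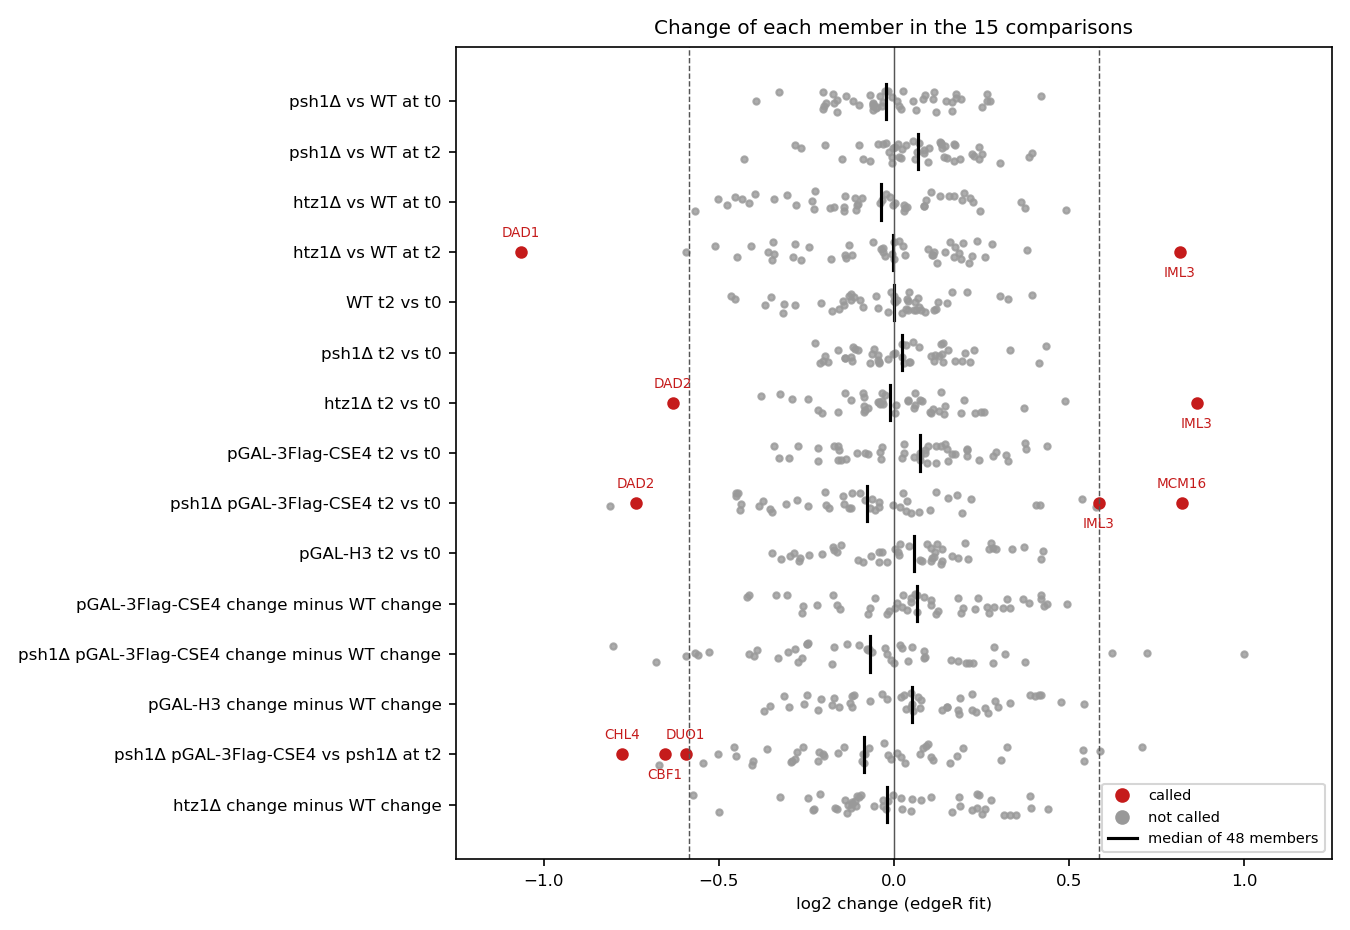
Log2 change of each of the 48 members (points) in each of the 15 comparisons, from the edgeR fit; red points with names are called, black bars are the medians of the 48, and dashed lines mark a fold of 1.5 either way. The medians lie near 0 throughout, and 10 points are called.

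Of the genes for proteins on centromeric DNA, CBF1 was lower when CENP-A was induced without Psh1. CBF1 encodes a helix-loop-helix protein that binds the sequence CACGTG at centromeres and at promoters of sulfur metabolism genes, and its coding sequence (YJR060W) lies at chrX:548759-549814. It had 45.1, 45.2 and 46.3 CPM in *psh1Δ pGAL-3Flag-CSE4* at t2, in batches 1 to 3, and 57.1 to 78.6 CPM in the other 31 libraries. The 3 libraries thus lay below every other library of the series. Such a gap below all others was seen in 3.38% of all genes for this group, and among the members in CBF1 and DUO1.

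In the same strains at t0 CBF1 had 59.7, 61.3 and 64.2 CPM. In *psh1Δ* at t2 it had 64.1, 69.5 and 78.6, the highest group mean of CBF1 in the series (70.7 CPM). The log2 difference from *psh1Δ* at t2 was -0.65 ± 0.12 (SE; edgeR adjusted p 0.017), lower in 3 of 3 batches, and the change from t0 was -0.44 ± 0.08 (adjusted p 0.018), past the test but under the fold limit. In *pGAL-3Flag-CSE4*, where Psh1 was present, it went from 64.7 and 70.8 CPM to 60.0 and 61.5, with 2 libraries at each time. This change of -0.16 ± 0.10 did not pass the test (edgeR adjusted p 0.35), and its difference from the change without Psh1 was not tested. With any batch left out, the difference from *psh1Δ* stayed between -0.71 and -0.59, and its adjusted p rose to between 0.090 and 0.134. Relative to the change in WT, CBF1 was not called by edgeR. The CBF3 subunit genes CEP3, NDC10 and CTF13 were not called in any comparison. CTF13 also had lower values than in *psh1Δ* at t2, without overlap (7.88, 8.19 and 6.495 against 9.84, 10.1 and 9.51 CPM, -0.40 ± 0.19, edgeR adjusted p 0.23), while CEP3 and NDC10 had differences of 0.03 and 0.18. Their differences from CBF1 were not tested.

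The upstream regions of CBF1, CHL4 and CTF19 are shown next, chosen because they hold the site CACGTG that Cbf1 binds. Each is the stretch of 200 bases that starts 300 bases before the start codon, 5′ to 3′ on the gene's strand, from the RefSeq R64 assembly, whose sequence is that of SacCer3, with CACGTG in capitals.
CBF1 (chrX:548459-548658, plus strand): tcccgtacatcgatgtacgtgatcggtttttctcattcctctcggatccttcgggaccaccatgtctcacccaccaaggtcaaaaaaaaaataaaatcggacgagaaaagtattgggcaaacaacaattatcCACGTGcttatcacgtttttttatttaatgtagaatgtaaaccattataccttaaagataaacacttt
CHL4 (chrIV:964813-965012, plus strand): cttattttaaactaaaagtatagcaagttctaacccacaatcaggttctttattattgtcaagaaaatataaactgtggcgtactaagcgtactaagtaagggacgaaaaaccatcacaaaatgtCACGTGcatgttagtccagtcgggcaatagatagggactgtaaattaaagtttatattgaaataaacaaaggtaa
CTF19 (chrXVI:517351-517550, plus strand): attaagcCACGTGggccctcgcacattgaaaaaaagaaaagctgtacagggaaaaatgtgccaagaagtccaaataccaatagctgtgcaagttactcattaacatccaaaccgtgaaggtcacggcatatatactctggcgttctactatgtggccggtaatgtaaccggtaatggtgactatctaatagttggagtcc

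CACGTG, which reads the same on both strands, was found in the windows of 3 of the 48 members (6.25%) and in 3.11% of 5700 windows of the same length before protein-coding genes. Those 3 members are CBF1, CHL4 and CTF19. A match of letters describes the sequence only. The window of MCM16, which was called in *psh1Δ pGAL-3Flag-CSE4*, holds none of the motifs searched. Those of IML3 and DAD2, also called in these cells, hold no CACGTG. The windows of MIF2 and DUO1 hold CNCGAAA and TGACTC but no CACGTG. In *psh1Δ pGAL-3Flag-CSE4* at t2, CBF1 and CHL4 were called lower than in *psh1Δ*, and CTF19 had higher values without an edgeR call.

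CTF19 encodes a subunit of COMA, the complex that binds the tail of CENP-A (YPL018W, chrXVI:517651-518760). Its level was 29.9, 31.7 and 33.1 CPM in *psh1Δ pGAL-3Flag-CSE4* at t2, and 13.6 to 24.9 CPM in the other 31 libraries. The 3 libraries lay above all others, which was the case for 2.83% of all genes in this group and for CTF19 alone among the members. In these strains at t0 it had 16.5, 24.0 and 23.1 CPM, and in WT it went from 21.8, 24.5 and 22.5 CPM at t0 to 16.5, 20.4 and 13.6 at t2.

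The difference between these changes in CTF19 was 1.00 ± 0.23 on the log2 scale, positive in 3 of 3 batches, and its adjusted p of 0.064 with edgeR missed the limit. DESeq2 called it (adjusted p 0.0068), as did a fit to all 34 libraries (0.012). Against *psh1Δ* at t2 (17.8, 24.9 and 14.3 CPM), the log2 difference was 0.71 ± 0.20 (edgeR adjusted p 0.068), which DESeq2 also called (0.030). The other COMA genes, OKP1, AME1 and MCM21, were called nowhere. CTF19 shares 27 bases with the antisense gene IRC15, whose own change relative to WT was 0.43 ± 0.19 (adjusted p 0.28), and reads of this overlap cannot be told apart.

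MIF2 encodes CENP-C, which binds the CENP-A nucleosome directly. It had 35.6, 39.9 and 32.1 CPM in *psh1Δ pGAL-3Flag-CSE4* at t2 and 24.7, 23.3 and 26.1 at t0. The groups did not overlap, but 1 *psh1Δ* library at t0, of batch 3, reached 35.4 CPM. The change was 0.54 ± 0.12 (edgeR adjusted p 0.029), past the test and under the fold limit, and with batch as a block the adjusted p was 0.062 and with a batch left out 0.057 to 0.183. Against *psh1Δ* at t2 (26.7, 24.7 and 19.0 CPM) it was 0.59 ± 0.16 (adjusted p 0.063), and here the block gave a call, 0.60 with an adjusted p of 0.041.

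MCM16 encodes a subunit of the Ctf3 complex of the inner kinetochore, whose human counterpart is CENP-H (YPR046W, chrXVI:656799-657344). It rose from 8.76, 9.85 and 10.9 CPM at t0 to 18.4, 15.1 and 18.7 at t2 in *psh1Δ pGAL-3Flag-CSE4*, a log2 change of 0.82 ± 0.15 (edgeR adjusted p 0.019). All 3 batches rose, and the groups did not overlap. Its values in *pGAL-3Flag-CSE4* went from 8.73 and 9.78 CPM to 10.7 and 13.4, and in *pGAL-H3* from 10.5, 10.2 and 8.45 to 12.8, 12.2 and 12.7.

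Relative to WT, the change of MCM16 in *psh1Δ pGAL-3Flag-CSE4* was 0.72 ± 0.19 higher (adjusted p 0.096), so it did not pass that test. MSF1, whose coding sequence starts 184 bases beyond MCM16 on the same strand, fell by 0.73 in the same comparison (adjusted p 0.0084). CTF3, MCM22 and CNN1, the other genes of this group, had values just under 0, the lowest -0.08, and were not called. Without batch 1, 2 or 3 the MCM16 change was 0.70, 0.91 and 0.83, with adjusted p of 0.171, 0.077 and 0.063.

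IML3 was the member called most often, in 3 of the 15 comparisons. Iml3 (CENP-L) and Chl4 (CENP-N) form a pair that helps to recruit cohesin and Sgo1 around the centromere. IML3 (YBR107C, chrII:453793-454530, minus strand) had 53.1, 77.1 and 56.0 CPM in *htz1Δ* at t2, and 21.5 to 39.1 CPM in the other 31 libraries. The 3 libraries lay above all others, as was the case for 2.25% of all genes in this group and for IML3 alone among the members.

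In WT, IML3 had 26.7, 25.4 and 27.7 CPM at t0 and 29.1, 38.0 and 38.5 at t2. In *htz1Δ* it had 33.1, 33.1 and 36.9 CPM at t0. The *htz1Δ* libraries were higher than WT in every batch at both times, by 0.37 ± 0.10 on the log2 scale at t0 (edgeR adjusted p 0.075, not called) and 0.82 ± 0.16 at t2 (adjusted p 0.0060, called).

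The rise of IML3 from t0 to t2 was 0.86 ± 0.15 in *htz1Δ* (edgeR adjusted p 0.0049). In *psh1Δ pGAL-3Flag-CSE4* the rise was 0.59 ± 0.11 (edgeR adjusted p 0.018). This value lay only just past the fold limit, by far less than its SE, so the call is close to that limit. In *pGAL-H3* the rise was 0.42 ± 0.10 (edgeR adjusted p 0.018, under the fold limit). In WT it was 0.39 ± 0.13 (adjusted p 0.10) and 0.33 ± 0.17 in *pGAL-3Flag-CSE4* (adjusted p 0.28), and these missed the test. In *psh1Δ* the change was 0.02 ± 0.16, with 21.5, 25.9 and 29.4 CPM at t0 and 26.2, 28.3 and 23.3 at t2. Differences between these rises did not pass: the *htz1Δ* rise exceeded that of WT by 0.44 ± 0.21 (adjusted p 0.99), and that of *psh1Δ pGAL-3Flag-CSE4* by 0.16 ± 0.16 (adjusted p 0.69).

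Against *psh1Δ* at t2, IML3 lay 0.54 ± 0.13 higher in *psh1Δ pGAL-3Flag-CSE4* (37.8, 39.1 and 38.2 CPM; edgeR adjusted p 0.038), past the test and under the fold limit. Those values overlap WT at t2. Without batch 2, the *htz1Δ* rise was 0.65 with an adjusted p of 0.055. Without batch 1, 2 or 3, the rise in *psh1Δ pGAL-3Flag-CSE4* was 0.57, 0.65 and 0.51, with adjusted p of 0.155, 0.066 and 0.084. Of the genes beside IML3, AIM3 lies head to head with it, 291 bases away, and PHO88 lies 568 bases away on the other side. In *htz1Δ* from t0 to t2, AIM3 changed by -0.22 ± 0.09 (edgeR adjusted p 0.094) and PHO88 by 0.10 ± 0.10 (0.52). In *htz1Δ* against WT at t2 the values were 0.11 ± 0.09 (0.46) and 0.24 ± 0.09 (0.094). In *psh1Δ pGAL-3Flag-CSE4* from t0 to t2 they were -0.05 ± 0.09 (0.75) and 0.45 ± 0.13 (0.062). Neither gene was called in these comparisons.

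CHL4 (YDR254W, chrIV:965113-966489), the partner of IML3, went another way. It had 17.2, 16.6 and 18.5 CPM in *psh1Δ pGAL-3Flag-CSE4* at t2 and 37.6, 26.0 and 24.6 in *psh1Δ* at t2. The groups did not overlap, and the log2 difference was -0.78 ± 0.18 (edgeR adjusted p 0.041). The batch 1 library of *psh1Δ* was the highest of the 34, and without batch 1 the difference was -0.55 (adjusted p 0.297), against -0.82 (0.144) without batch 2 and -0.94 (0.096) without batch 3. Relative to WT the difference in change was -0.41 ± 0.22 (adjusted p 0.39). MET32, a sulfur gene regulator that starts 547 bases away in the other direction, differed by -0.64 ± 0.21 in the comparison with *psh1Δ* (adjusted p 0.10). NKP1 and NKP2, the remaining genes of this group, were called nowhere.

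Of the MIND complex, the linker between inner and outer kinetochore, no gene was called in any comparison. DSN1, a subunit that Ipl1 phosphorylates, had 33.5, 38.7 and 36.3 CPM in *htz1Δ* at t0 and 47.6, 52.7 and 47.0 in WT at t0. The *htz1Δ* libraries lay below the other 31, which began at 39.1 CPM, as did 1.37% of all genes in this group. The difference was -0.43 ± 0.10 (edgeR adjusted p 0.048), past the test but not the fold limit, and without batch 1 or 2 its adjusted p was 0.302 or 0.297. At t2 the values were 47.2, 42.4 and 39.1 CPM in *htz1Δ* and 47.6, 50.9 and 53.7 in WT.

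MTW1 (YAL034W-A, chrI:79718-80587), a subunit that gives the MIND complex its first letter, lies on chromosome I. Its level was 26.9 and 24.6 CPM at t0 and t2 in the batch 1 *psh1Δ* strain and 34.7 and 19.2 in the batch 1 *psh1Δ pGAL-3Flag-CSE4* strain. In the other 30 libraries it had between 7.10 and 18.8 CPM. The 4 high libraries are the same 4 in which the genes of chromosome I had a median 0.82 to 0.95 above WT. The part of that difference in the MTW1 values was not tested.

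From t0 to t2, MTW1 had the most negative log2 change of all members in *psh1Δ pGAL-3Flag-CSE4*, -0.81 ± 0.43, with -0.85, -0.38 and -1.20 in batches 1 to 3, and it did not pass the test (edgeR adjusted p 0.25). The batch 3 library at t2 was the lowest of all 34, at 7.10 CPM. MTW1 shares 125 bases with the antisense reading frame YAL034C-B.

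**Figure D3:**
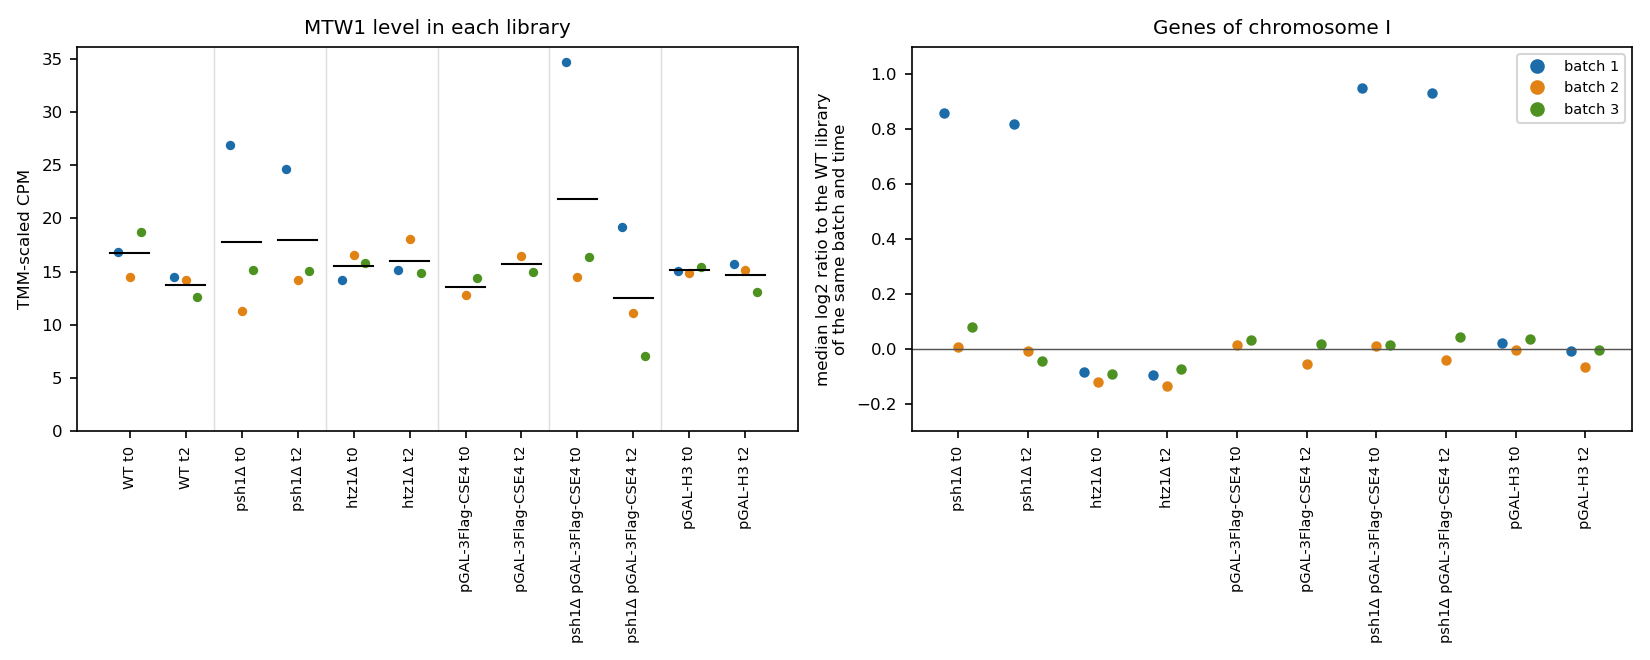
Left, TMM-scaled CPM of MTW1 in each library by group, coloured by batch, with group means as bars. Right, median log2 ratio of the chromosome I genes of each library to the WT library of its batch and time; the 4 batch 1 libraries of the *psh1Δ* and *psh1Δ pGAL-3Flag-CSE4* strains lie at 0.82 to 0.95.

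Of the outer complexes that reach the microtubule, only the Dam1 ring held called genes. NDC80 had 32.7, 33.0 and 36.5 CPM in WT at t0, and its group means differed by 1.27-fold at most over the 12 groups. SPC105 and KRE28, the scaffold for checkpoint proteins and its partner, had ratios of 1.22 and 1.27. No gene of the Ndc80 or Spc105 complexes was called.

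In the Dam1 ring, 3 of 10 subunits (30%) were called in at least 1 comparison, each of them lower, which is near the 26.8% of all genes called in either direction. DAD1 (YDR016C, chrIV:478474-478758, minus strand) had 9.64, 7.65 and 7.74 CPM in *htz1Δ* at t2 and 19.2, 14.3 and 18.8 in WT at t2. The groups did not overlap, and the log2 difference of -1.06 ± 0.19 (edgeR adjusted p 0.0035) was the largest of any call of a member. At t0 the difference was already -0.57 ± 0.16 (9.31, 12.9 and 10.8 CPM against 15.1, 16.4 and 17.6), which missed the adjusted limit (0.081).

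Between *htz1Δ* and WT, the changes in DAD1 over time differed by -0.50 ± 0.24, which did not pass the test (adjusted p 0.99). Without batch 3, the difference at t2 was -0.96, with an adjusted p of 0.054. The genes on either side, HED1 and KCS1, did not pass the test, at -0.50 ± 0.70 and 0.04 ± 0.08.

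DAD2 (YKR083C, chrXI:596421-596822, minus strand) fell from t0 to t2 in both settings with calls. In *htz1Δ* it went from 12.3, 11.8 and 11.2 CPM to 8.65, 6.67 and 7.33, a log2 change of -0.63 ± 0.17 (edgeR adjusted p 0.028). In *psh1Δ pGAL-3Flag-CSE4* it went from 13.8, 11.6 and 14.1 CPM to 8.49, 6.09 and 9.13, a change of -0.74 ± 0.19 (adjusted p 0.046). The t0 and t2 libraries did not overlap in either genotype, while in WT they did, at 11.8, 8.70 and 15.7 CPM against 13.4, 10.6 and 10.2.

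These are low counts, between 29 and 113 per library for DAD2, and the calls lie close to the limit. With batch as a block the adjusted p in *psh1Δ pGAL-3Flag-CSE4* was 0.051, and DESeq2 gave 0.051 in *htz1Δ*. Leaving out batch 1, 2 or 3 gave changes of -0.71, -0.54 and -0.65 in *htz1Δ* (adjusted p 0.085, 0.231 and 0.060). In *psh1Δ pGAL-3Flag-CSE4* it gave -0.76, -0.66 and -0.83 (0.213, 0.127 and 0.102). Relative to WT, the changes differed by -0.57 ± 0.30 and -0.68 ± 0.32, with adjusted p of 0.99 and 0.32.

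The upstream windows of both genes are shown, cut in the same way, because both hold CNCGAAA, the element bound by the G1 factor SBF, in capitals.
DAD1 (chrIV:478859-479058, minus strand): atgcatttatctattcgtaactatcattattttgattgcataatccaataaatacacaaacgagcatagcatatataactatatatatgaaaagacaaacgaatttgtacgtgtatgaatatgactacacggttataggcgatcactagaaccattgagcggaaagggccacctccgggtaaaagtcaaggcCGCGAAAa
DAD2 (chrXI:596923-597122, minus strand): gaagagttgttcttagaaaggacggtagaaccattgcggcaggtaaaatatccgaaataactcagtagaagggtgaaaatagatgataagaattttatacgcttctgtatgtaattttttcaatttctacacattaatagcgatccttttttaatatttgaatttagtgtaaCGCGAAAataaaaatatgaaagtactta

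CNCGAAA was found on either strand in 8 of 48 member windows (16.7%) and in 11.4% of all 5700 windows. The window of DAD2 includes 68 bases of the neighbouring gene HBS1. ACGCGT, the element of the G1 factor MBF, was in 2 members (4.17%), IPL1 and MTW1, against 3% of all windows. TGACTC, the Gcn4 element, was in 2 (4.17%), DUO1 and OKP1, against 6.04%.

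DUO1 (YGL061C, chrVII:388968-389711, minus strand), the third subunit called, had 16.2, 15.1 and 14.4 CPM in *psh1Δ pGAL-3Flag-CSE4* at t2 and 25.2, 21.3 and 21.5 in *psh1Δ* at t2. Its 3 libraries lay below the other 31, which began at 17.3 CPM. The log2 difference was -0.59 ± 0.15 (edgeR adjusted p 0.046), close to both limits: it was not called by DESeq2 (0.066), with batch as a block (0.0501), or with any batch left out (-0.63 to -0.56, adjusted p 0.147 to 0.305).

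DAD3 had 13.7, 11.6 and 11.8 CPM in *psh1Δ pGAL-3Flag-CSE4* at t2, after 17.8, 17.6 and 15.2 at t0, whereas WT went from 15.5, 17.7 and 13.9 to 20.0, 17.9 and 21.4. The difference of the changes was -0.80 ± 0.19 (edgeR adjusted p 0.064; DESeq2 0.048, called). DAM1, a subunit at which Ipl1 acts, differed by -0.45 ± 0.11 between *htz1Δ* and WT at t2 (edgeR adjusted p 0.021, under the fold limit). It had 37.4, 36.9 and 29.7 CPM against 45.8, 45.9 and 50.02. Without batch 1, 2 or 3, its adjusted p was 0.090, 0.034 and 0.179. ASK1 moved upwards in *psh1Δ pGAL-3Flag-CSE4* from t0 to t2, from 32.0, 31.0 and 34.5 to 43.5, 41.4 and 45.3 CPM (0.42 ± 0.09, adjusted p 0.032, under the fold limit; 0.057 with batch as a block), and shares 279 bases with an antisense reading frame.

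Across all 10 Dam1 subunits the median change in *psh1Δ pGAL-3Flag-CSE4* from t0 to t2 was -0.31, with 8 negative and 2 positive, against 0.01 over all genes. Of these, DAD2 was called. The medians of the other 11 functional groups ran from -0.33 (Iml3, Chl4 and the Nkp proteins) and -0.21 (MIND) to 0.15 (SGO1 and STU2) and 0.54 (MIF2, a group of 1 gene). In *htz1Δ* against WT at t2 the median of the Dam1 subunits was 0.02, with 6 positive and 4 negative.

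**Figure D4:**
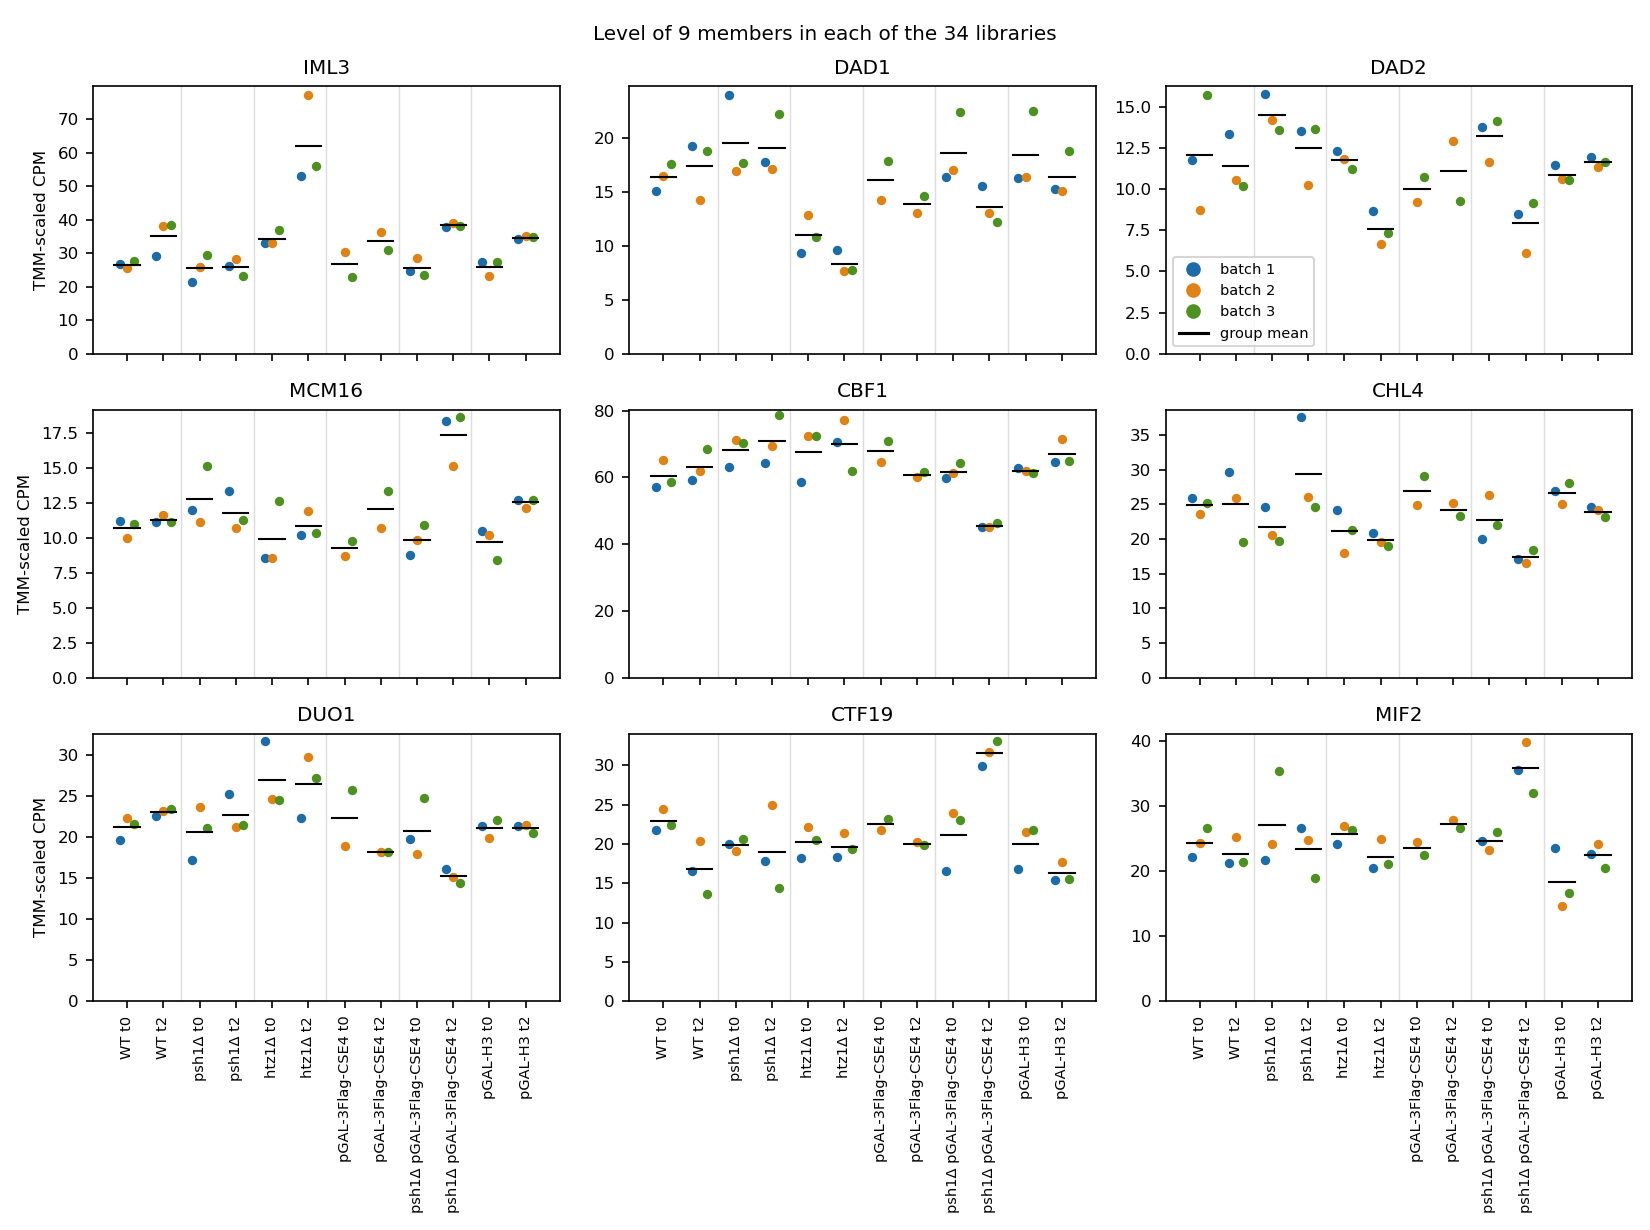
TMM-scaled CPM of 9 members in each of the 34 libraries by group, coloured by batch, with group means as bars and every axis starting at 0. IML3 is highest in *htz1Δ* at t2, DAD1 lowest in *htz1Δ* and CBF1 lowest (45.1 to 46.3 CPM) and CTF19 highest (29.9 to 33.1 CPM) in *psh1Δ pGAL-3Flag-CSE4* at t2.

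No gene of the passenger complex or the checkpoint was called in any of the 15 comparisons. IPL1 had 11.2, 7.89 and 11.5 CPM in WT at t0 and 7.47, 9.15 and 5.67 at t2, overlapping values at 32 to 75 counts per library, and its change of -0.47 ± 0.24 did not pass the test (edgeR adjusted p 0.26). SLI15 and BIR1, the other passenger genes, were called nowhere. The checkpoint kinase gene BUB1 had group means within 1.33-fold of each other, and MAD1, which recruits Mad2 to kinetochores, within 1.37-fold.

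MPS1, the kinase at the top of the checkpoint, had lower values in *htz1Δ* without a call. It had 31.2, 32.2 and 30.4 CPM at t0 against 40.7, 43.6 and 41.2 in WT, and 32.5, 27.9 and 33.0 at t2 against 48.03, 41.9 and 42.7. The groups did not overlap at either time. The differences were -0.41 ± 0.09 (edgeR adjusted p 0.044) and -0.51 ± 0.11 (adjusted p 0.011), both under the fold limit. Without batch 1, 2 or 3, the edgeR adjusted p was 0.275, 0.310 and 0.063 at t0. At t2 it was 0.099, 0.037 and 0.058. NDC10, the largest CBF3 subunit, differed by -0.50 ± 0.11 at t0 (25.1, 23.4 and 26.5 CPM against 34.0, 33.3 and 39.5, edgeR adjusted p 0.046). Without batch 1, 2 or 3, its adjusted p was 0.289, 0.297 and 0.056.

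MAD3, a subunit of the inhibitor of the anaphase-promoting complex, went from 36.0, 40.2 and 39.7 to 28.7, 32.0 and 31.0 CPM in *htz1Δ* from t0 to t2 (-0.33 ± 0.10, edgeR adjusted p 0.048; 0.056 with batch as a block). CEP3, a CBF3 subunit, went from 41.3, 38.8 and 40.5 to 32.4, 30.6 and 31.5 CPM in *pGAL-H3* (-0.35 ± 0.08, adjusted p 0.018). Both were under the fold limit. For MAD3, DESeq2 gave an adjusted p of 0.115, and edgeR without batch 1, 2 or 3 gave 0.134, 0.262 and 0.129. For CEP3, edgeR gave 0.142, 0.159 and 0.028 without these batches. The shugoshin gene SGO1 and STU2, a microtubule polymerase, were called nowhere.

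The remaining comparisons held no called member. In *psh1Δ* against WT, 0 members were called by edgeR and by DESeq2 at t0 and at t2 (0.0161% of all genes at each time), and 2 and 1 members had an unadjusted p under 0.05 (2.75 and 1.69% of all genes). At t0 these were DAD4, with 39.8, 28.9 and 35.8 CPM against 30.4, 25.1 and 22.6 (0.42 ± 0.17), and HSK3, with 11.9, 10.5 and 10.2 against 14.0, 13.7 and 13.4 (-0.33 ± 0.13), each with an edgeR adjusted p of 1.00. At t2 it was IML3 (-0.43 ± 0.15, adjusted p 0.999), and DAD3 followed with -0.28 ± 0.14. IML3 had 26.2, 28.3 and 23.3 CPM against 29.1, 38.0 and 38.5, and DAD3 16.5, 15.0 and 17.0 against 20.0, 17.9 and 21.4. The groups overlapped for DAD4 and not for HSK3, IML3 and DAD3. These genes were named for their small p, so the gaps add no further support.

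In *htz1Δ* against WT at t0, 0 members were called by either tool (2.98% of all genes), 3 passed the adjusted p alone (5.06% of all genes), and 10 had an unadjusted p under 0.05 (22.8%). From t0 to t2, WT (3% of all genes), *psh1Δ* (0.805%) and *pGAL-3Flag-CSE4* (4.86%) had 0 called members by either tool, and 6, 1 and 2 members with an unadjusted p under 0.05 (25.2, 19.4 and 26.5% of all genes). In WT the smallest p were those of IML3 and CTF19 (-0.45 ± 0.16, adjusted p 0.13). In *psh1Δ* they were those of MAD1 (0.33 ± 0.14, adjusted p 0.22) and CHL4 (0.43 ± 0.19, adjusted p 0.26), and in *pGAL-3Flag-CSE4* those of MAD1 (24.5 and 27.1 to 36.7 and 33.3 CPM, 0.44 ± 0.14, adjusted p 0.086) and SPC34 (29.2 and 30.2 to 23.5 and 23.5 CPM, -0.34 ± 0.14, adjusted p 0.16).

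The *pGAL-H3* strains served as a control for a galactose-induced histone that is not CENP-A. From t0 to t2, 10.8% of all genes and 0 of 48 members were called by edgeR and by DESeq2, 10 members had an unadjusted p under 0.05 (39.2% of all genes), and IML3 and CEP3 passed the adjusted p alone (24.1% of all genes). Without batch 3, BUB3, a checkpoint gene that went from 24.9, 26.6 and 35.4 to 39.8, 41.4 and 35.2 CPM, was called there, at 0.67 with an adjusted p of 0.00094.

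Relative to the change in WT, no member was called in *pGAL-3Flag-CSE4* (0.0161% of all genes), *pGAL-H3* (0.0161%) or, in a comparison added after the data were seen, *htz1Δ* (0% of all genes), by edgeR or DESeq2. The counts at an unadjusted p under 0.05 were 3, 2 and 0 (2.25, 5.89 and 4.45% of all genes). The smallest p belonged to OKP1 (22.5 and 23.2 to 29.1 and 25.2 CPM, 0.42 ± 0.16) and SPC34 (-0.42 ± 0.16) for *pGAL-3Flag-CSE4*, and to HSK3 (12.8, 12.0 and 10.0 to 12.6, 11.5 and 13.5 CPM, 0.48 ± 0.18) and SPC25 (38.7, 43.9 and 44.2 to 29.3, 37.5 and 34.4 CPM, -0.37 ± 0.15) for *pGAL-H3*. In *psh1Δ pGAL-3Flag-CSE4* relative to WT, 0.338% of all genes and 0 members were called by edgeR, 8 members had an unadjusted p under 0.05 (16.1% of all genes), and DESeq2 called CTF19 and DAD3. The smallest p there was that of CBF1 (-0.53 ± 0.11, edgeR adjusted p 0.063). The 3 differences for the inducible strains share the WT libraries.

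Other genes of mitosis were set beside the members from 6 lists: 7 further kinetochore genes, 9 cohesin, 5 condensin, 15 tubulin and motor, 10 spindle pole body and 17 anaphase regulator genes, 63 in all. In *htz1Δ* against WT at t2, 0 rose and 2 fell by both limits: SPC97, of the tubulin nucleation complex (-0.66 ± 0.14, edgeR adjusted p 0.011), and CDC27, of the anaphase-promoting complex (-0.60 ± 0.10, adjusted p 0.0033). In *htz1Δ* at t0, 1 fell, WIP1, which encodes the partner of Cnn1 (-0.75 ± 0.15, adjusted p 0.035).

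In *psh1Δ pGAL-3Flag-CSE4* from t0 to t2, 0 of the 63 rose and 1 fell, MHF1 (-0.63 ± 0.14, edgeR adjusted p 0.032), a histone-fold protein of the kinetochore and of DNA repair. Against *psh1Δ* at t2, 1 rose, NUD1 of the spindle pole body (0.59 ± 0.14, adjusted p 0.043). In *pGAL-H3* from t0 to t2, the cohesin gene MCD1 rose (0.63 ± 0.15, adjusted p 0.018) and APC5 fell (-0.59 ± 0.12, adjusted p 0.0087). In the other 10 comparisons none of the 63 was called.

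Genes with peaks in the cell cycle were also read, since asynchronous cultures can differ in the share of cells in mitosis. Of 30 such genes, 10 each for G1/S, G2/M and M/G1, 1 was called in *htz1Δ* against WT at t2 (CLB1, a mitotic cyclin, -0.72 ± 0.14, edgeR adjusted p 0.0065) and 1 in *psh1Δ pGAL-3Flag-CSE4* against *psh1Δ* at t2 (CLB1, -0.77 ± 0.13, adjusted p 0.017). From t0 to t2, 2 were called in *psh1Δ pGAL-3Flag-CSE4*, FAR1, a cyclin kinase inhibitor of the mating response (2.12 ± 0.20, adjusted p 0.0018), and PCL9 (-0.59 ± 0.14, adjusted p 0.040), and FAR1 alone in *htz1Δ* (2.40 ± 0.11), *psh1Δ* (1.98 ± 0.17) and WT (2.04 ± 0.13). In *pGAL-3Flag-CSE4*, with 2 libraries at each time, 9 were called, 4 higher and 5 lower, where 4.86% of all genes were called. In *pGAL-H3* it was 5, all higher, where 10.8% of all genes were called. Relative to the change in WT, 0 of the 30 were called in either strain, and 0 passed the adjusted p. Of all genes, 0.0161% were called in each of these comparisons. Relative to WT, the M/G1 list had a median of -0.50 in *pGAL-3Flag-CSE4*, with all 10 genes negative. Of these, 5 had an edgeR unadjusted p under 0.05 (2.25% of all genes). The G1/S list had a median of 0.37 in *pGAL-H3*, with all 10 genes positive, and 5 had such a p (5.89% of all genes). The median log2 change of the G2/M list from t0 to t2 was highest in *pGAL-3Flag-CSE4*, at 0.52, with 9 of its 10 genes past the adjusted p. It was 0.37 for WT, 0.32 for *psh1Δ*, 0.27 for *pGAL-H3*, 0.23 for *psh1Δ pGAL-3Flag-CSE4* and 0.17 for *htz1Δ*. At t2 the same list had a median difference of -0.08 between *htz1Δ* and WT and of -0.18 between *psh1Δ pGAL-3Flag-CSE4* and *psh1Δ*. The median of the M/G1 list from t0 to t2 was -0.59 in *pGAL-3Flag-CSE4*, and lay between -0.27 and -0.06 in the other genotypes. That of the G1/S list lay between -0.01 and 0.28. The part of cell cycle distribution in the changes of the members was not tested.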

How the data were processed

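RNA-seq libraries were made with a TruSeq RNA v2 kit, which does not mark strand, and read as single 50-base reads. The deposited counts were whole reads per gene that the authors obtained with TopHat 2.1.0 against SacCer3 and HTSeq 0.6.1, after removal of low-count genes, and the authors used edgeR 3.12.0. The strand setting of the counting is not given in the sources used here. From 8 tables, 64 count columns were read, of which 30 repeated another column exactly, leaving 34 libraries. The 64 normalized CPM columns were not used.

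Counts of the groups compared were fitted with edgeR 4.0.16 (limma 3.58.1, R 4.3.3) with TMM and the quasi-likelihood test over all 6209 genes, without a batch term. The CPM in the text were TMM-scaled over all 34 libraries. Alternatives were DESeq2 1.42.0, its size factors in edgeR, a minimum of 10 counts in 3 libraries, no fold limit, batch or culture as a block, all 34 libraries in 1 fit, and each batch left out. Tables and figures were made with Python 3.11.15, pandas 2.3.3, numpy 2.4.6 and matplotlib 3.10.9, and the fits were tested on simulated data. The limits on p and fold are those of the study's methods.

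Members were named where called, where past the adjusted p alone (up to 5 per comparison), where among the 2 smallest p of a comparison without calls, where highest or lowest per length, or as 1 gene for each layer (IPL1, NDC80, MIF2, BUB1 and MAD1). Other genes named beside them (neighbours, and members just past a limit in an alternative) were chosen after their values were seen. Where 2 groups are said not to overlap, the gene was mostly picked by its p. The share of all genes with such a gap between 2 groups is not given. The members, the gene lists and the motifs were chosen with earlier results of these data known. Batch pairs the libraries, as the labels state it: over 177 same-batch pairs of libraries, deviations from the group means correlated at -0.44 to 0.82, with a median of 0.16, and 100 pairs exceeded 0.1. Replicates are separate strains grown in separate batches, and replicate pairs differed by 4.73 to 75.4 times counting noise (chi-square per degree of freedom), so no library was counted as a duplicate.

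Gene positions are those in the deposited tables (SacCer3), identical to RefSeq R64 for all 48 members. Upstream windows were read from RefSeq R64 and searched on both strands. The result for a further motif is not reported here.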

Additional observations from a re-analysis of the deposited data

Results flagged for a closer look

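The changes of all 48 members from t0 to t2 were compared between *psh1Δ* and WT, and between *psh1Δ pGAL-3Flag-CSE4* and each of *psh1Δ* and *pGAL-3Flag-CSE4*. Listed are the 7 members in which every culture of one genotype changed one way and every culture of the other the opposite way, whatever the size of the change. None of these differences was tested, and *pGAL-3Flag-CSE4* has only 2 cultures. The share of all genes that meet this rule is not given, so the count is not a result about the members.

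Against *psh1Δ*, CHL4 changed by -0.38 on the log2 scale on average in *psh1Δ pGAL-3Flag-CSE4* (-0.67 to -0.22 over 3 batches) and by 0.42 in *psh1Δ* (0.32 to 0.61). Against *pGAL-3Flag-CSE4*, CTF19 changed by 0.59 (0.40 to 0.85) and by -0.17 with Psh1 present (-0.22 and -0.11). DAD3 changed by -0.45 (-0.60 to -0.36) and by 0.38 with Psh1 present (0.17 and 0.60).

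MTW1 changed by -0.81 (-1.20 to -0.38) and by 0.21 in *pGAL-3Flag-CSE4* (0.05 and 0.37). NKP1 changed by -0.31 (-0.55 to -0.01) and by 0.13 in *pGAL-3Flag-CSE4* (0.11 and 0.14). The MIND gene NNF1 changed by -0.14 (-0.21 to -0.08), by 0.38 in *psh1Δ* (0.17 to 0.73) and by 0.33 in *pGAL-3Flag-CSE4* (0.26 and 0.40). The passenger gene SLI15 changed by -0.25 (-0.45 to -0.09), by 0.14 in *psh1Δ* (0.06 to 0.19) and by 0.03 in *pGAL-3Flag-CSE4* (0.01 and 0.05). In the comparison of *psh1Δ* with WT no member was listed.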

How the results depend on the processing

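Counts of called members changed by over 1.5 times as follows. Without a fold limit, they were 3 in *htz1Δ* against WT at t0, 4 at t2, 6 in *psh1Δ pGAL-3Flag-CSE4* from t0 to t2 and 2 in *pGAL-H3* from t0 to t2. DESeq2 gave 1 in *htz1Δ* from t0 to t2, and 2 for the change in *psh1Δ pGAL-3Flag-CSE4* relative to WT. The fit to all 34 libraries gave 3 for that change and 5 against *psh1Δ* at t2. With a batch left out, the counts ranged from 1 to 2 in *htz1Δ* against WT at t2, from 0 to 1 in *htz1Δ* from t0 to t2 and from 0 to 1 in *pGAL-H3*. They ranged from 0 to 0 in *psh1Δ pGAL-3Flag-CSE4* from t0 to t2 and from 0 to 0 against *psh1Δ* at t2. These fits compare 2 libraries with 2, and the log2 changes of the called members kept their direction in them.

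With batch as a replicate block, 2 members were called in *psh1Δ pGAL-3Flag-CSE4* from t0 to t2 (without DAD2) and 3 against *psh1Δ* at t2 (MIF2 in place of DUO1), and the block changed no other call. The log2 changes of the named members changed sign in none of the alternatives run on them. The median over all members did so in plain CPM in *htz1Δ* against WT at t2 (0.009 to -0.13) and in WT from t0 to t2 (0.007 to -0.03), where the median of all genes was -0.14 and -0.05. Leaving out a batch of *pGAL-3Flag-CSE4* from t0 to t2 left no residual degrees of freedom, so that test was not run. In plain CPM the mean log2 level of the members at t2 was 4.45 in *htz1Δ* and 4.38 in the induced *psh1Δ* strains. Genes with low counts, such as DAD2 and IPL1, are limited by depth (29 to 113 and 32 to 75 counts per library), each genotype has at most 3 strains, and p-values measure only the spread between these cultures.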
